A study of Homo sapiens with 12 samples.

Results

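Small nucleolar RNA (snoRNA) host transcripts are spliced noncoding RNAs whose introns carry snoRNAs. The 9 members GAS5, SNHG1, SNHG5, SNHG6, SNHG7, SNHG8, SNHG12, SNHG15 and ZFAS1 are listed by name, and all 9 were found among the 55765 gene symbols counted. They are read against 79 cytosolic ribosomal protein genes, whose transcripts are also linked to growth. RNA was sequenced from 12 cultures of SH-SY5Y, a human neuroblastoma cell line whose cells leave the cell cycle and extend neurites with all-trans retinoic acid (ATRA). In the co-treatment experiment, 3 cultures were differentiated for 7 days in ATRA with hydrogen peroxide (H2O2) present throughout, and 3 control cultures received ATRA alone. For pre-treatment, H2O2 was given to 3 cultures for 72 h and ATRA followed for 7 days, while 3 control cultures had ATRA but no H2O2. The text deposited with the samples gives the H2O2 dose as 10 mM, and the methods of the study give 10 μM. The labels name the source of the line as SK-N-SH, the bone marrow line from which SH-SY5Y was cloned, so all cultures come from 1 cloned line. Nothing in the labels says that the cultures of a group were grown independently, so the p-values measure the spread between these samples, which may be technical.

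The best known product of a host gene lies in its introns. After splicing, the intron is trimmed to a snoRNA, which guides 2′-O-methylation or pseudouridylation of ribosomal RNA, while the joined exons of several hosts hold only short reading frames and are removed by nonsense-mediated decay, a pathway that needs translation. Many hosts also start with a 5′ terminal oligopyrimidine (TOP) tract, a run of C and T at the first base that ribosomal protein transcripts share and that ties their translation to nutrient and growth signals. GAS5 was named for its accumulation in growth-arrested cells, and ZFAS1 for its place antisense to ZNFX1.

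On hg19, with the GENCODE annotation lifted to that build, the 9 members are all long noncoding RNA genes with introns. GAS5 lies on chromosome 1, 173827697 to 173838020, SNHG12 on chromosome 1, 28905050 to 28909644, SNHG8 on chromosome 4, 119199858 to 119206471, and SNHG5 on chromosome 6, 86360209 to 86388650. SNHG15 lies on chromosome 7, 45022618 to 45026560, SNHG7 on chromosome 9, 139615818 to 139622636, SNHG1 on chromosome 11, 62619450 to 62623425, and ZFAS1 on chromosome 20, 47894715 to 47916137. SNHG8 and ZFAS1 are on the plus strand and the other 7 on the minus strand. The canonical transcripts have between 3 exons (SNHG6, SNHG8 and SNHG15) and 12 exons (GAS5).

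The start of each canonical transcript was read from the genome because the TOP tract is the sequence feature that hosts and ribosomal protein genes are known to share. The lines that follow show 20 bases before and 30 bases from the annotated start of GAS5 (chr1:173837098-173837147, minus strand), SNHG8 (chr4:119199843-119199892, plus), SNHG7 (chr9:139622607-139622656, minus) and ZFAS1 (chr20:47895159-47895208, plus), with the longest unbroken run of C and T within 20 bases of the start in capitals.
GAS5: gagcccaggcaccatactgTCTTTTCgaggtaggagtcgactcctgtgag
SNHG8: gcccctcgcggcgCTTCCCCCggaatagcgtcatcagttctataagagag
SNHG7: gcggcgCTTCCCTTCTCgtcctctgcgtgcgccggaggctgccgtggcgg
ZFAS1: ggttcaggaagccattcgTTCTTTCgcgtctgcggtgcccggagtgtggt
Of the 9 hosts 5 had a run of at least 7 C or T on the transcribed strand, or 55.6%. The run was 5 bases in SNHG1, 6 in SNHG5 and 3 in SNHG15. Of the 79 ribosomal protein genes 74 (93.7%) had such a run, with a median of 12 bases, and of 38532 protein-coding and long noncoding genes 25.7% had one, with a median of 5. In GAS5 and ZFAS1 the run began 1 or 2 bases before the annotated start, and in SNHG7 it began 14 bases before it. Annotated starts can differ from those used in these cells, and a match describes the letters in this window.

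The products of the ZFAS1 introns are shown because the symbol of each names 1 locus in the annotation. SNORD12C (chr20:47895477-47895565, plus strand), SNORD12B (chr20:47896856-47896946) and SNORD12 (chr20:47897220-47897309) are C/D-box snoRNAs, and the capitals mark the letters TGATGA of the C box and CTGA of the D box.
SNORD12C: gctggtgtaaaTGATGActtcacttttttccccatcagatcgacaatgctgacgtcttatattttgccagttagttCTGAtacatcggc
SNORD12B: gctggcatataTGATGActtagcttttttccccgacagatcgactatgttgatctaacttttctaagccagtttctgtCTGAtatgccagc
SNORD12: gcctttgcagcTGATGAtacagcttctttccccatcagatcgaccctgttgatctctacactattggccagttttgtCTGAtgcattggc
In all 3 the C box began at base 12 and the D box lay near the opposite end, the layout that lets the ends of a C/D-box snoRNA pair.

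The libraries held 27576276 to 98287391 reads assigned to genes, and the 9 hosts together had 12987 to 61216 reads, so counting error is small beside the spread between cultures. Control replicates 1 and 2 of the pre-treatment experiment stood apart from the other 10 libraries. They had 0.800 and 0.830 reads on no annotated gene for each counted read, against 0.200 in control replicate 3 and 0.263 to 0.462 in the libraries of the other groups. The share of counts on small-RNA genes was 1.59% and 2.88% in these controls, 17.6% in control replicate 3 and 5.04% to 15.1% elsewhere. Pairs of libraries were compared with a chi-square over genes, which gave 40.1 per degree of freedom between controls 1 and 2 but 545 and 499 between each of them and control 3. Which of these controls represents untreated cells was not tested, so the pre-treatment levels and calls of the hosts are given over all 6 libraries, with control replicates 1 and 2 only (the control libraries that the study clustered with the treated ones), and for control replicate 3 alone. The first of these comparisons shares its libraries with the other 2. Of the neuroblastoma and neuron markers, HAND2 had 306 to 564 CPM (read counts scaled per library to a common depth) and STMN2 807 to 1611 CPM, while TH, the first enzyme of catecholamine synthesis, was near 0 (0.0104 to 0.263 CPM). The summed level of the 10 listed markers was 4616 to 4847 CPM in co-treatment controls and 3516 to 4271 CPM with H2O2, and 3311 to 4609 CPM in pre-treatment controls and 3462 to 3991 CPM with H2O2. Of 9 tested, all had a log2 fold change below 0 with co-treatment, 4 of them with an unadjusted p under 0.05 and 0 called by edgeR's quasi-likelihood test. Over all 6 pre-treatment libraries 0 of 9 were called, with 2 unadjusted p under 0.05, and against pre-treatment controls 1 and 2 there were 2 called higher, STMN2 and ISL1, and 3 lower, such as DBH, which makes noradrenaline. Their part in the host levels was not tested.

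Counts were scaled to normalized CPM with TMM factors over the 12 libraries. GAS5 was the most abundant host, with a mean of 175 CPM over the 12 libraries, and SNHG12 the least abundant, with 17.1 CPM. Per kilobase GAS5 also came first, with 35.4 CPM per kilobase of all annotated exons and 227 CPM per kilobase of the canonical transcript. Below GAS5 the order depended on the length used: SNHG6 came next at 16.1 CPM per kilobase of all exons, but SNHG5 at 52.4 CPM per kilobase of the canonical transcript, where SNHG6 had 22.3. The order of these 8 is therefore not given. SNHG6 lies on chromosome 8 of hg19, 67832796 to 67838633, and its start is not printed. Levels set across the 2 experiments compare libraries whose batches cannot be told apart from the experiment.

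**Figure D1:**
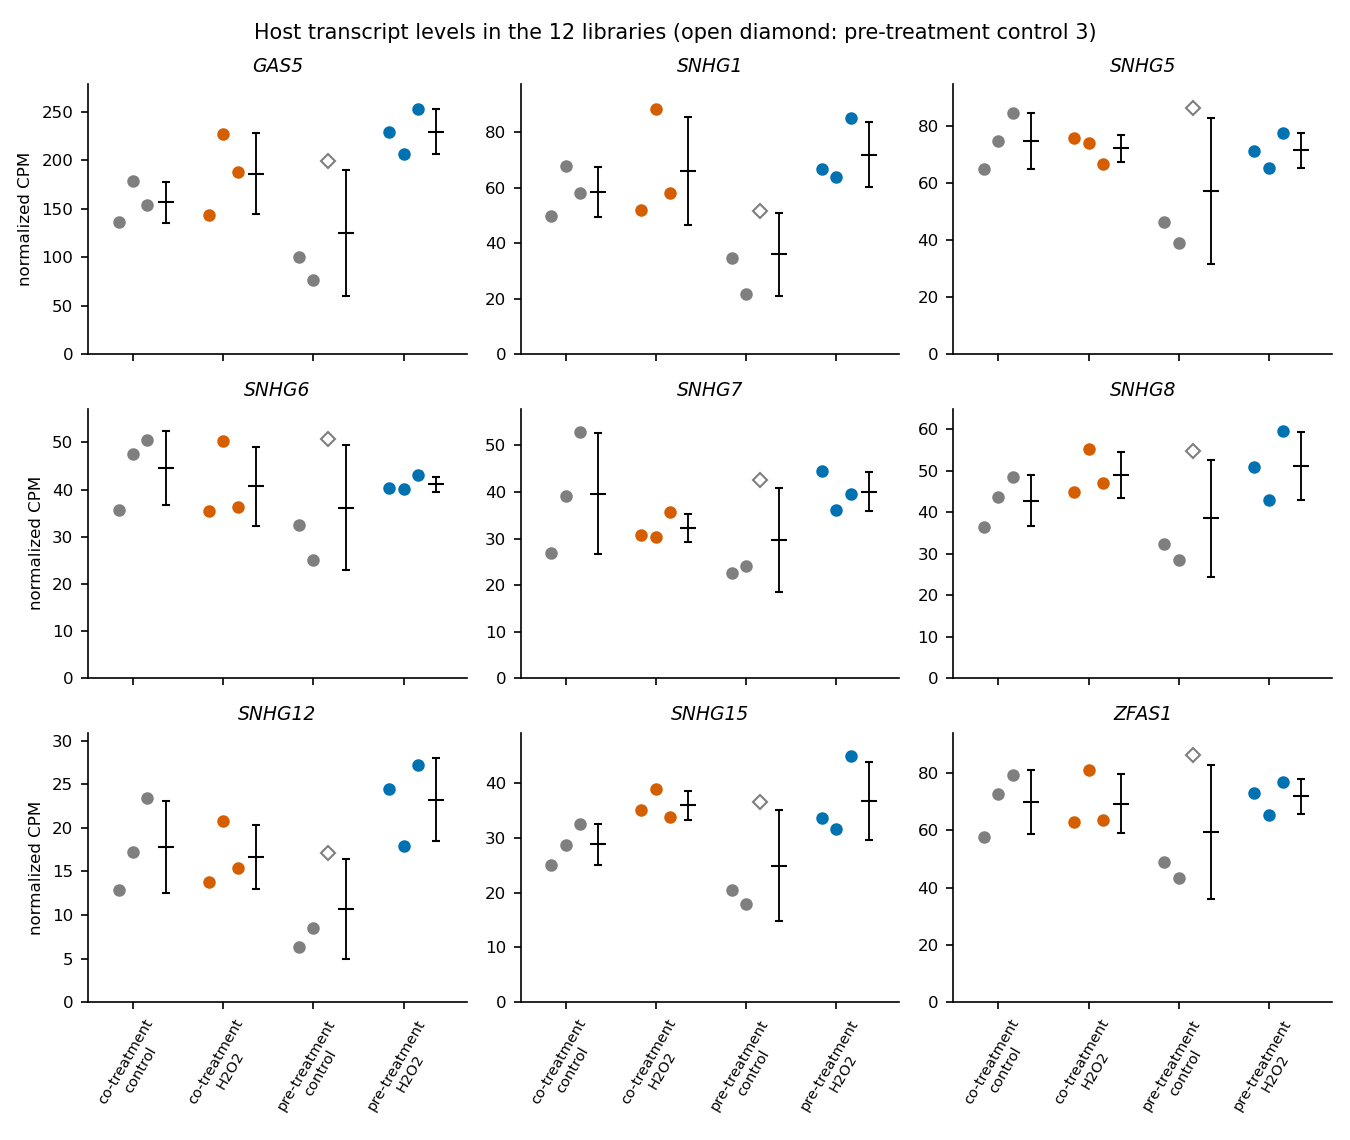
Normalized CPM (vertical axis, linear from 0) of each host in the 12 libraries. Points are libraries, black bars are mean ± SD (n = 3), and the open diamond is pre-treatment control replicate 3. Pre-treatment controls 1 and 2 lie below all 3 treated libraries in every panel, and the open diamond lies within or above the treated range in 6 panels and just below it in GAS5 and SNHG12, and further below in SNHG1.

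With H2O2 present during differentiation, none of the 9 hosts passed an FDR below 0.05 in edgeR's quasi-likelihood test, where 0.598% of the 22089 genes tested did. Their log2 fold changes (log2FC, treated over control) ran from -0.29 for SNHG7 to 0.32 for SNHG15, with a median of -0.01, and 4 of 9 were above 0. The median of 78 tested ribosomal protein genes was 0.00, with 0 of 78 called and 2 with an unadjusted p under 0.05, and the median of all genes tested was also 0.00. The number of hosts called stayed at 0 with edgeR's exact test, DESeq2 and limma-voom, each of which gave 1 host an unadjusted p under 0.05.

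SNHG15, which hosts SNORA9, was the 1 host whose treated and control libraries did not overlap in CPM. It had 25.1, 28.8 and 32.5 CPM in controls 1 to 3 and 35.1, 38.9 and 33.9 CPM with H2O2, so each treated library was above each control. Among all genes tested, 6.58% had all 3 treated libraries above all 3 controls. The log2FC was 0.32 (95% interval 0.03 to 0.62), with an unadjusted p of 0.0328 and an adjusted p of 0.539 in edgeR's quasi-likelihood test. An unadjusted p under 0.05 was found for 8.15% of all genes, against 1 of 9 hosts. Scaled to reads on ribosomal protein genes, SNHG15 had 57.3 to 65.5 reads per 100000 ribosomal protein reads in controls and 76.1 to 77.3 with H2O2, and SNHG8 had 94.8, 91.0 and 85.1 in controls and 97.0, 108 and 107 with H2O2. On that scale the groups overlapped in neither of these hosts, and all 3 treated libraries were above all 3 controls, a pattern that 4.83% of all genes tested showed, and neither was called in edgeR's quasi-likelihood test.

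GAS5 had 137, 179 and 154 CPM in the co-treatment controls and 143, 227 and 189 CPM with H2O2. The groups overlapped, and the log2FC of 0.25 (95% interval -0.12 to 0.63) did not pass the test (adjusted p = 0.795, edgeR quasi-likelihood). SNHG1, the host of a series of C/D-box snoRNAs from SNORD22 to SNORD31, had 49.7, 67.7 and 58.2 CPM in controls and 51.8, 88.3 and 57.9 CPM with H2O2. Its highest value was treated replicate 2, and without that library its log2FC of 0.18 became -0.09. SNHG12 had 12.8, 17.2 and 23.4 CPM in controls and 13.8, 20.7 and 15.4 CPM with H2O2.

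SNHG5, the host of SNORD50A and SNORD50B, had 64.9, 74.8 and 84.6 CPM in controls and 75.9, 74.1 and 66.7 CPM with H2O2, for a log2FC of -0.05 (95% interval -0.33 to 0.24). SNHG8, which hosts SNORA24, had 36.4, 43.6 and 48.3 CPM in controls and 44.7, 55.1 and 47.0 CPM with H2O2, for a log2FC of 0.20 (-0.11 to 0.51). In both of these hosts treated and control libraries overlapped. SNHG7 had 27.0, 39.1 and 52.9 CPM in controls and 30.7, 30.3 and 35.8 CPM with H2O2, for a log2FC of -0.29 (-0.73 to 0.15). Without control 1 the SNHG7 value was -0.51 (unadjusted p = 0.00387, adjusted p = 0.168, edgeR quasi-likelihood), and without control 3 it was -0.03. GAS5 ran from 0.08 without treated replicate 2 to 0.41 without treated replicate 1, also with no call. SNHG6 had 35.6, 47.6 and 50.5 CPM in controls and 35.5, 50.3 and 36.3 CPM with H2O2. ZFAS1 had 57.5, 72.6 and 79.2 CPM in controls and 62.9, 81.1 and 63.6 CPM with H2O2. For ZFAS1 the groups covered nearly the same range, and the log2FC of -0.01 had a 95% interval of -0.34 to 0.32.

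When H2O2 preceded ATRA, the hosts were higher than in control replicates 1 and 2, and the result rested on which controls were used. Against controls 1 and 2, 9 of 9 hosts passed an FDR below 0.05 and all were higher, with log2FC from 0.58 (SNHG6) to 1.71 (SNHG12) and a median of 0.85. This comparison called 26.1% of the 26350 genes tested, and 13.2% were called higher. Over all 6 libraries 0 of 9 hosts passed, where 0.0242% of the 24743 genes tested did, although all 9 log2FC were above 0, with a median of 0.45. The count over all 6 libraries was also 0 with edgeR's exact test, DESeq2 and limma-voom. Against control replicate 3 alone 0 of 9 passed in edgeR's quasi-likelihood test, with 1 unadjusted p under 0.05 (SNHG1, 0.0485). The log2FC there ran from -0.31 (SNHG6) to 0.47 (SNHG1), with a median of -0.10, and this fit assumes that the single control varies like the treated libraries.

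GAS5 had 100.4 and 76.5 CPM in pre-treatment controls 1 and 2, 199 CPM in control 3, and 229, 206 and 253 CPM with H2O2. All 3 treated libraries were above all 3 controls, but control 3 lay close to the lowest treated library. The log2FC was 1.45 (95% interval 1.09 to 1.81, adjusted p = 0.00121, edgeR quasi-likelihood) against controls 1 and 2 and 0.89 (0.09 to 1.68, adjusted p = 0.395) over all 6 libraries, and it was 0.20 against control 3 alone.

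SNHG12, which hosts SNORD99 and several H/ACA-box snoRNAs, had 6.39 and 8.52 CPM in controls 1 and 2, 17.1 CPM in control 3, and 24.5, 17.9 and 27.2 CPM with H2O2. Its log2FC was the highest of the 9 against controls 1 and 2, at 1.71 (95% interval 1.19 to 2.24, adjusted p = 0.00252, edgeR quasi-likelihood). Over all 6 libraries it was 1.14 (0.28 to 1.99, adjusted p = 0.334), and against control 3 alone 0.43. SNHG1 had 34.6 and 21.7 CPM in controls 1 and 2, 51.6 CPM in control 3, and 66.7, 63.7 and 85.2 CPM with H2O2. The treated SNHG1 libraries were also above all 3 controls. Its log2FC was 1.42 (0.92 to 1.92, adjusted p = 0.00405, edgeR quasi-likelihood) against controls 1 and 2, 1.02 (0.30 to 1.73, adjusted p = 0.32) over all 6 libraries and 0.47 against control 3 alone.

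GAS5, SNHG1 and SNHG12 were the 3 hosts with all treated libraries above all 3 controls, a pattern that 7.97% of all genes tested showed. They were also the 3 hosts with an unadjusted p under 0.05 over all 6 libraries (0.0328, 0.0109 and 0.0157), which 11.2% of all genes had. With SNHG15 they were the 4 hosts past a log2FC of 1 against controls 1 and 2, a threshold that 2.98% of all genes passed with an FDR below 0.05 in the higher direction.

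In the other 6 hosts, control 3 lay within or above the treated range. SNHG15 had 20.4, 17.9 and 36.5 CPM in the 3 controls and 33.5, 31.6 and 44.9 CPM with H2O2, so that control 3 fell between treated libraries, and the log2FC was 1.01 (0.59 to 1.43) without control 3 and 0.00 against it alone. SNHG8 had 32.4, 28.5 and 54.6 CPM in controls and 50.9, 42.9 and 59.5 CPM with H2O2. SNHG7 had 22.6, 24.1 and 42.7 CPM in controls and 44.4, 36.2 and 39.6 CPM with H2O2. For these 3 hosts control 3 was as high as a treated library, and controls 1 and 2 were below every treated one.

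SNHG5 had 46.5, 39.0 and 86.6 CPM in the pre-treatment controls and 71.5, 65.5 and 77.8 CPM with H2O2. ZFAS1 had 48.8, 43.3 and 86.2 CPM in controls and 73.1, 65.3 and 77.0 CPM with H2O2, and SNHG6 had 32.6, 25.1 and 50.8 CPM in controls and 40.4, 40.1 and 43.0 CPM with H2O2. In these 3 hosts control 3 was the highest of the 6 libraries. Against it alone the log2FC was -0.28 for SNHG5, -0.27 for ZFAS1 and -0.31 for SNHG6, whereas against controls 1 and 2 it was 0.81, 0.71 and 0.58. All 9 hosts had their 3 treated libraries above controls 1 and 2, which 25.7% of all genes tested did.

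With 1 control left, which the fit assumes to vary like the treated libraries, the number of calls differed. Against control 1 alone 4 hosts were called (GAS5, SNHG1, SNHG7 and SNHG12), and against control 2 alone all 9 were. The direction of each host was the same in both cases. Controls 1 and 2, where the hosts were lower than in control 3, had a smaller share of reads on small-RNA genes and more reads on no gene. The part of these 2 measures in the result was not tested.

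**Figure D2:**
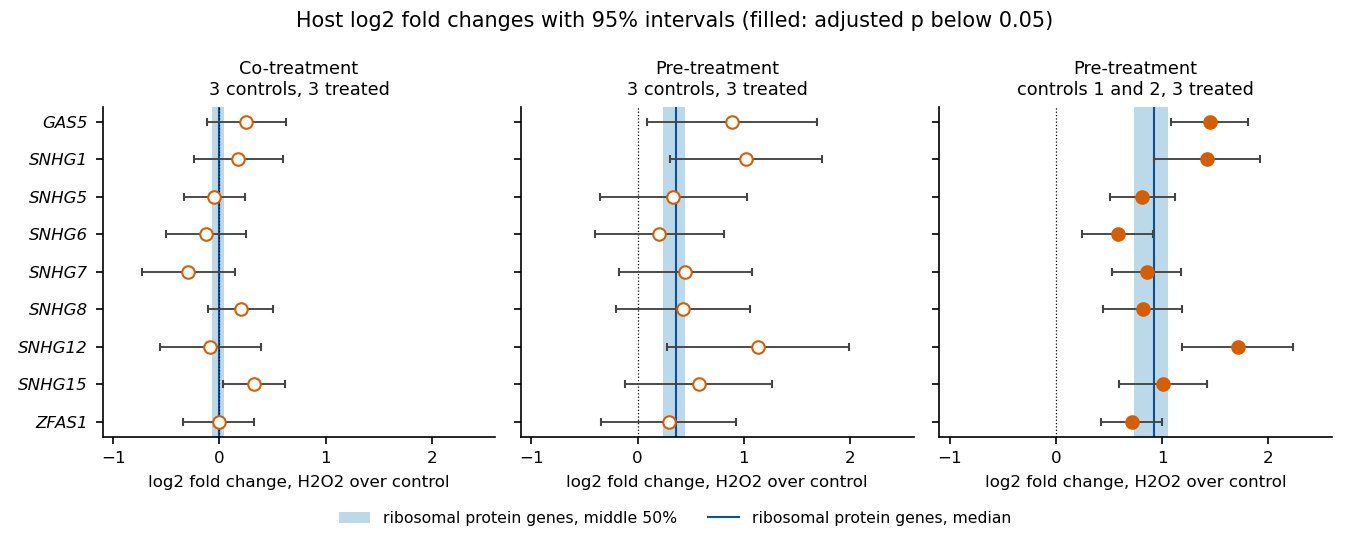
Log2 fold change (horizontal axis) of each host with its 95% interval in the co-treatment comparison and in the pre-treatment comparison with 3 or 2 controls; filled points have an adjusted p below 0.05. The blue line is the median and the band the middle 50% of the 78 ribosomal protein genes, at 0.00, 0.36 and 0.92, and GAS5, SNHG1 and SNHG12 lie to the right of the band in both pre-treatment panels. In the co-treatment panel GAS5, SNHG1, SNHG8 and SNHG15 lie to the right of the band, and SNHG12 does not.

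The ribosomal protein genes, which encode the protein part of the ribosome, moved with the hosts. Against controls 1 and 2, 76 of 78 were called and all were higher, with a median log2FC of 0.92 beside 0.85 for the hosts and 0.01 for all genes tested. Over all 6 libraries 0 of 78 were called and 77 of 78 log2FC were above 0, with a median of 0.36. Against control 3 alone their median was -0.34. In ribosomal protein genes, pseudogenes and near-identical copies such as RPS17L can take reads, so the sum over the list is firmer than any 1 gene.

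Within that shared shift, GAS5, SNHG1 and SNHG12 stood above the ribosomal protein genes. SNHG12 exceeded the log2FC of all 78 ribosomal protein genes against controls 1 and 2, and GAS5 and SNHG1 each exceeded 77 of 78. Over all 6 libraries SNHG1 and SNHG12 exceeded all 78 and GAS5 77. Against controls 1 and 2, SNHG5, SNHG7 and SNHG8 lay inside the list, above 27 to 30 of the 78, SNHG15 was above 51, ZFAS1 above 17 and SNHG6 above 5. Over all 6 libraries SNHG5 was above 33, SNHG7 58, SNHG8 55, SNHG15 72, ZFAS1 28 and SNHG6 16. In the co-treatment comparison, where no host was called, GAS5 and SNHG15 also exceeded all 78, SNHG8 77 and SNHG1 76. These hosts were 0.18 to 0.32 above the ribosomal protein median there. SNHG12 was above only 17 with co-treatment, ZFAS1 38, SNHG5 25, SNHG6 11 and SNHG7 3. For GAS5 and SNHG1 a rank above nearly all ribosomal protein genes was therefore not particular to pre-treatment. Against controls 1 and 2 the 3 leading hosts were 0.50 to 0.79 above the ribosomal protein median on the log2 scale, and SNHG6 was 0.34 below it.

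To measure this difference directly, the counts were scaled to the reads on ribosomal protein genes in place of TMM, which puts the median log2FC of all genes at -0.86 against controls 1 and 2 and at -0.53 over all 6 libraries. On this scale 2 hosts were called against controls 1 and 2, SNHG12 (log2FC 0.82, adjusted p = 0.0108, edgeR quasi-likelihood) and GAS5 (0.56, adjusted p = 0.0155), where 0.884% of all genes were called higher. Of the 78 tested ribosomal protein genes, 4 were called higher and 2 lower in the same fit. SNHG1 missed the threshold (0.53, adjusted p = 0.0502). The other 6 hosts had log2FC from -0.30 (SNHG6) to 0.11 (SNHG15) and were not called. Over all 6 libraries no host was called, and SNHG12 had a log2FC of 0.80 (unadjusted p = 0.0355, adjusted p = 0.337).

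On the same scale the values of the 3 leading hosts depended less on control 3. GAS5 had 390.0, 297 and 345 reads per 100000 ribosomal protein reads in controls 1 to 3 and 521, 497 and 501 with H2O2. SNHG12 had 24.8, 33.1 and 29.7 in controls and 55.7, 43.2 and 54.0 with H2O2, and SNHG1 had 134, 84.4 and 89.3 in controls and 152, 153 and 169 with H2O2. In each of the 3, control 3 fell between or close to the other controls and all treated libraries were above all controls, a pattern that 1.41% of all genes tested showed on this scale. That share is taken over genes whose median log2FC was -0.53 on this scale over all 6 libraries. Of the 79 ribosomal protein genes, 7 showed the pattern, and 10 had all treated libraries below all controls. ZFAS1 had 189, 168 and 149 reads per 100000 in controls and 166, 157 and 152 with H2O2, and its log2FC of -0.17 against controls 1 and 2 was not called. SNHG6 had 127, 97.6 and 87.9 in controls and 91.6, 96.5 and 85.1 with H2O2, and its log2FC of -0.30 was not called either. In both ZFAS1 and SNHG6 the treated libraries were below controls 1 and 2, as in 18 of the 79 ribosomal protein genes. On this scale the median log2FC of all genes against controls 1 and 2 was -0.86, and 14385 of 26350 genes were called lower.

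Summed over the 9 members, the libraries had 13.4, 11.1 and 10.8 host reads per 1000 ribosomal protein reads in the pre-treatment controls and 14.4, 13.7 and 14.0 with H2O2. The treated libraries were above each control, and the ratio was 1.20-fold higher over all 6 libraries (0.26 on the log2 scale) and 1.15-fold higher without control 3 (0.21). GAS5 alone gave a large part of this sum: without it the difference was 0.12 over all 6 libraries and 0.04 without control 3. In the co-treatment experiment there were 11.6, 11.9 and 10.3 host reads per 1000 ribosomal protein reads in controls and 10.7, 13.1 and 12.4 with H2O2, a difference of 0.10 on the log2 scale within an SD of 0.13 between replicates. These ratios are given as a description, with no test.

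**Figure D3:**
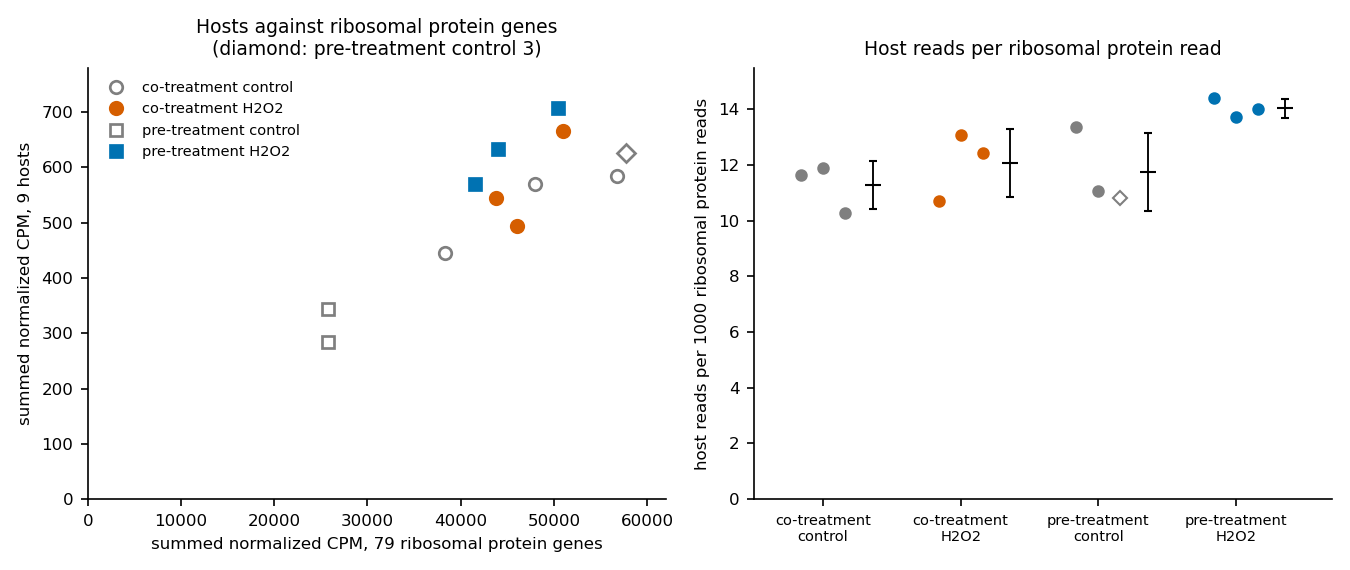
Left, summed normalized CPM of the 9 hosts against that of the 79 ribosomal protein genes, 1 point per library; right, host reads per 1000 ribosomal protein reads in each group, with mean ± SD (n = 3). Pre-treatment controls 1 and 2 are lowest on both axes at the left, at 25728 and 25754 summed CPM of ribosomal protein genes, and at the right the 3 pre-treated libraries (13.7 to 14.4) lie above the other 9 (10.3 to 13.4).

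The response of the hosts in the 2 experiments was compared as the pre-treatment log2FC minus the co-treatment log2FC. Over all 12 libraries the difference ran from 0.21 (SNHG8) to 1.21 (SNHG12) and 0 of 9 hosts were called, where 0.0287% of all genes were. SNHG12 had an unadjusted p of 0.0212 and an adjusted p of 0.534 in edgeR's quasi-likelihood test. Over the 11 libraries without pre-treatment control 3, 5 hosts were called, all in the direction of a higher response before ATRA, which 3.32% of all genes showed. These were GAS5 (1.14), SNHG1 (1.19), SNHG5 (0.81), SNHG7 (1.09) and SNHG12 (1.75), with adjusted p from 0.0140 to 0.0382 (edgeR quasi-likelihood). Of the ribosomal protein genes 47 of 78 were called in the same direction, with a median difference of 0.89 beside 0.81 for the hosts.

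The levels of the members also varied together from library to library. After each library was centred on the mean of its experiment, the log2 level of each host correlated with the mean of the other 8 with a Pearson r from 0.785 (SNHG7) to 0.961 (SNHG8) over 12 libraries. Among 10499 genes with a mean of at least 10 CPM, those whose pattern was most like the mean of the hosts were EIF3M (r = 0.989), a subunit of an initiation factor of translation, RPL23 (0.984), LTA4H (0.984), PSMG1 (0.984), an assembly chaperone of the proteasome, and RPS4X (0.982). Ribosomal protein genes had a median r of 0.929, with 43 of 76 among the 500 genes most like the hosts, and all genes had a median of 0.259. Other noncoding snoRNA hosts had a median of 0.798 (7 genes). The points share their libraries, and controls 1 and 2 of the pre-treatment experiment, the lowest libraries, weigh on each of these values, which are descriptions.

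Other genes of the snoRNA and translation pathways were read from the same comparisons. In the co-treatment comparison, and over all 6 pre-treatment libraries, none of the genes in the 6 related lists was called by edgeR's quasi-likelihood test, and an unadjusted p under 0.05 was found for 1 or 2 genes a list with co-treatment and for 0 to 5 over all 6 pre-treatment libraries. Against controls 1 and 2, where 13.2% of all genes were called higher, 5 of 10 tested noncoding hosts outside the 9 were called higher and 0 lower, among them SNHG3 (log2FC 2.50) and DANCR (0.78). SNHG17 (-0.38) and MEG8 (-1.03) were not called. Of 16 protein-coding genes with snoRNAs in their introns 13 were called higher, such as HSPA8 (1.20), a chaperone, and EIF4A2 (1.26), a helicase of translation initiation. Of 15 other genes with TOP tracts 12 were called higher, with EEF1A1 (1.18), an elongation factor, among them, and 1 lower, PABPC1 (-0.81), which binds poly(A) tails. EEF1B2, EEF2, TPT1 and GNB2L1 are in both the protein-coding host list and the TOP list, so these counts partly cover the same genes.

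The machinery that makes snoRNP particles and removes host exons was read against controls 1 and 2, where 13.2% of all genes were called higher and 12.8% lower. Of 14 snoRNP proteins and RNA polymerase I factors 8 were called higher, such as NHP2L1 (0.80), which binds C/D-box snoRNAs, and NOP10 (0.65), an H/ACA-box protein, and 1 lower, POLR1A (-1.03), the largest subunit of RNA polymerase I. That list shares NOP56, DKC1 and NCL with the protein-coding hosts and NPM1 with the other TOP genes. Of 14 nonsense-mediated decay factors 3 were called higher, including EIF4A3 (0.50), and 4 lower, including SMG6 (-1.07). Their median log2FC was 0.11, beside 0.85 for the hosts. Of 16 proliferation genes 0 were called higher and 1 lower, MKI67 (-2.10), with a median of -0.01. MYC (2.56) was not called (adjusted p = 0.0538, edgeR quasi-likelihood). Over all 6 pre-treatment libraries 0 of 16 were called and 2 were above 0, with a median of -0.24. The summed level of these 16 genes was 1558, 1742 and 1616 CPM in the pre-treatment controls. With H2O2 before ATRA it was 945, 901 and 1779 CPM, so the treated libraries differed among themselves. Markers of mesenchymal, substrate-adherent cells were low or absent in part: PRRX1 had at most 0.0752 CPM and COL1A1 at most 1.61 CPM, while COL3A1 had 13.3 to 111 CPM and FN1 66.9 to 236 CPM. Of 7 tested 4 were called higher against controls 1 and 2, which were VIM (2.66), COL3A1 (2.48), CD44 (1.11) and YAP1 (3.11, at no more than 0.964 CPM). FOSL1 (0.32), FN1 (-0.53) and COL1A1 (-1.05) were not called there. FN1 (-0.33) and COL1A1 (-0.60) were also below 0 over all 6 pre-treatment libraries, and COL1A1 (-1.65) with co-treatment, all without a call. VIM (2.42) and COL3A1 (2.44) were also called over all 6 pre-treatment libraries (both adjusted p = 0.0442, edgeR quasi-likelihood), and VIM (1.16, adjusted p = 0.0272) with co-treatment. Their summed level was 122 to 264 CPM in the pre-treatment controls and 200.3 to 277 CPM with H2O2. In the co-treatment experiment their summed level was 95.3 to 218 CPM in controls and 193 to 213 CPM with H2O2. The part of these cells in the host levels was not tested, and fewer cells of a type cannot be told apart from less RNA per cell.

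**Figure D4:**
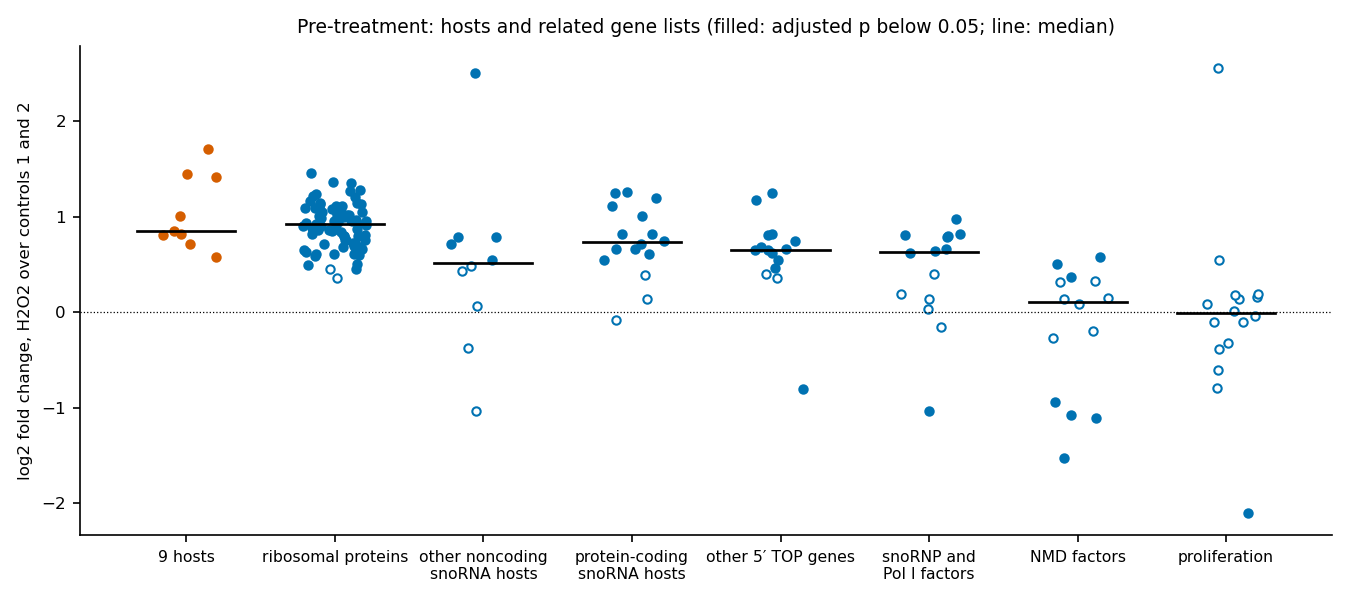
Log2 fold change (vertical axis) of each tested gene of 8 lists, H2O2 before ATRA over pre-treatment controls 1 and 2; points are genes, filled where the adjusted p is below 0.05, and lines are medians. The medians run from 0.92 for ribosomal protein genes and 0.85 for the 9 hosts to 0.11 for nonsense-mediated decay (NMD) factors and -0.01 for proliferation genes.

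The snoRNAs themselves could be read only in small part, since few reads were counted on them. Of the listed symbols, 4 name 1 locus inside a member: the 3 snoRNAs of ZFAS1 printed above and SNORD99 in SNHG12. SNORD12 and SNORD12B also overlap annotated exons of ZFAS1 outside its canonical transcript, so their counts are not cleanly separated from those of the host. SNORD12 had 57, 60 and 102 reads in the pre-treatment controls and 152, 123 and 164 with H2O2, or 1.03, 1.31 and 1.55 CPM and 1.58, 1.81 and 2.05 CPM. The treated libraries were above the controls, but the log2FC of 0.50 over all 6 libraries (95% interval -0.21 to 1.21) and of 0.70 against controls 1 and 2 (0.06 to 1.33) had adjusted p of 0.578 and 0.0966 in edgeR's quasi-likelihood test. SNORD12C had log2FC of 0.75 and 1.48 (adjusted p = 0.652 and 0.0512), SNORD12B -0.19 and -0.03, and SNORD99 0.97 and 1.36 (adjusted p = 0.555 and 0.115). None of the 4 was called in either pre-treatment comparison or with co-treatment, where their log2FC lay between -0.10 (SNORD12C) and 0.44 (SNORD99). With as few as 4 reads on SNORD99 in a control, a change of the size seen in SNHG12 could not be told from no change in its snoRNA.

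Genes on the opposite strand bear on how far the counts belong to the hosts, since the strand setting of the counting is not given in the sources used here. In the annotation, exons of MCMDC2 cover 58.9% of the exon bases of SNHG6, PRSS12 37.6% of SNHG8, DIPK1B 30.3% of SNHG7, and ZNFX1 2.99% of ZFAS1. The symbol DIPK1B is not in the counts, so no value is given for the partner of SNHG7. The other 3 partners did not follow their hosts as 1 group against controls 1 and 2. PRSS12, a protease gene, fell by 0.57 on the log2 scale (adjusted p = 0.0129, edgeR quasi-likelihood) while SNHG8 rose by 0.82. ZNFX1 (-0.09, adjusted p = 0.607) was not called while ZFAS1 was. Other overlaps are not reported here. MCMDC2 rose by 0.84 (adjusted p = 0.0401) as SNHG6 rose by 0.58, but it had 76 to 263 reads in each pre-treatment library against 1146 to 3894 on SNHG6. None of these 3 partners was called over all 6 libraries, with log2FC of -0.65 for PRSS12 (adjusted p = 0.32, edgeR quasi-likelihood), -0.12 for ZNFX1 and 0.63 for MCMDC2 (adjusted p = 0.457).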

How the data were processed

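Total RNA depleted of ribosomal RNA (Ribo-Zero, TruSeq Stranded Total RNA) was sequenced from 12 cultures in 4 groups of 3. According to the study's methods and the submitters' processing notes, the authors trimmed reads with Cutadapt 2.10, checked them with FastQC 0.11.8, mapped them to hg19 with HISAT2 2.1.0 and counted them per gene symbol with HTSeq 0.7.2. The counts deposited by the authors are whole reads per symbol, not normalized, with closing entries for uncounted reads, which were kept out of library sizes and tests. The strand setting and annotation version are not given in the sources used here. The authors' tables of differential expression (log2 fold changes, mean log2 CPM, p-values and FDR) were not used.

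The analysis used R 4.3.3 and edgeR 4.0.16 (quasi-likelihood test, two-sided, TMM factors, Benjamini-Hochberg over all genes tested, FDR below 0.05), and with limma 3.58.1 and DESeq2 1.42.0 as alternatives. A gene was tested if, in a number of libraries no lower than the size of the smaller group, it reached the CPM equal to 5 counts in the library of lowest depth. All 9 hosts passed this filter in each comparison, as did 78 of 79 ribosomal protein genes. Between 27576276 and 98287391 reads were counted on genes per library. Intervals are 95% intervals of the log2FC from the fit, and values per library are CPM over 12 libraries.

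Hosts, ribosomal protein genes and related lists were chosen with earlier results of these data known. In the related lists, the genes named are among those with the lowest adjusted p in each direction. Opposite-strand partners were named by position. Positions and sequences come from GRCh37 with GENCODE v44 lifted to that build, which has the coordinates of hg19. Of the 208 listed symbols in the counts, 194 matched 1 gene there. Symbols of hosted snoRNAs that name several loci or copies elsewhere were left out. The alternatives were other tests, normalizations and filters, ribosomal protein reads as the library size, 1 fit over both experiments, a replicate block, and fits without each of the libraries. The comparison with control replicate 3 as the only control was added after seeing the data.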

Additional observations from a re-analysis of the deposited data

Results flagged for a closer look

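The difference between the 2 experiments in the treatment effect of a host, tested as an interaction, passed an FDR below 0.05 for 5 of 9 hosts over the 11 libraries without pre-treatment control replicate 3. The log2FC before ATRA minus the log2FC with ATRA was 1.14 for GAS5, 1.19 for SNHG1, 0.81 for SNHG5, 1.09 for SNHG7 and 1.75 for SNHG12. In the same fit 3.32% of all genes and 47 of 78 ribosomal protein genes were called in that direction. The median difference was 0.89 for the ribosomal protein genes and 0.81 for the 9 hosts, so the hosts as a list did not exceed them. Over all 12 libraries none of the 5 passed in edgeR's quasi-likelihood test, with differences of 0.62, 0.82, 0.37, 0.73 and 1.21 and 1 unadjusted p under 0.05 (SNHG12). The part of control replicate 3 in this was measured only by leaving it out.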

How the results depend on the processing

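The number of hosts called depended on the controls. In the co-treatment comparison it was 0 under every alternative run. In the pre-treatment comparison over all 6 libraries it was 0 under every alternative but the loss of control replicate 3 (range without 1 library 0 to 9, and 0 against control replicate 3 alone). With controls 1 and 2 it was 9 in the main comparison and 8 or 9 under the other tests, normalizations and filters, 4 with a log2FC threshold of 1, 2 on ribosomal protein reads and 4 to 9 without 1 library, the lowest without control replicate 2. For the difference between experiments it was 0, and 5 over the 11 libraries without pre-treatment control replicate 3.

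Ribosomal protein genes called were 0 with co-treatment (1 with edgeR's exact test, with no filter and with the replicate block, and 0 to 1 without 1 library), 0 over all 6 pre-treatment libraries (1 with DESeq2, 0 to 76 without 1 library) and 76 with controls 1 and 2 (27 with the log2FC threshold, 6 on ribosomal protein reads, 49 to 76 without 1 library). For the difference between experiments they were 0 (1 with no filter, 47 over the same 11 libraries). Without GAS5 the log2 ratio of host to ribosomal protein reads was 0.12 over all 6 libraries and 0.036 with controls 1 and 2.

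Of all genes, 132 were called with co-treatment, against 333 with the exact test, 342 with DESeq2, 80 with library size only, 0 on ribosomal protein reads, 535 with no filter, 3 with both experiments in 1 fit, and 18 to 223 without 1 library. Over all 6 pre-treatment libraries 6 were called, against 271 with the exact test, 705 with DESeq2, 0 with limma-voom and with upper-quartile factors, 1 with library size only, 0 on ribosomal protein reads, 319 with no filter, 68 with both experiments in 1 fit, 1 against control replicate 3 alone and 0 to 6871 without 1 library. With controls 1 and 2, 6871 were called (3489 higher, 3382 lower), against 2952 with the log2FC threshold (784 higher), 14618 on ribosomal protein reads (233 higher) and 1634 to 8577 without 1 library. With library size only 1384 were higher and 4892 lower, and with upper-quartile factors 2186 and 4088, and the median of all genes moved to -0.21 and -0.10, but the hosts stayed higher. For the difference between experiments 7 were called, against 106 with DESeq2, 2 with limma-voom, 4 with library size only, 0 on ribosomal protein reads, 272 with no filter, 2058 over the 11 libraries without pre-treatment control replicate 3 and 0 to 5 without any 1 of the other libraries.

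Signs of uncalled log2FC turned in several cases. With co-treatment, SNHG5 became 0.0074 with library size only, and ZFAS1 became 0.0038 with limma-voom, 0.022 with upper-quartile factors and 0.044 with library size only. Leaving out 1 library gave -0.093 to 0.32 for SNHG1, -0.14 to 0.049 for SNHG5, -0.28 to 0.16 for SNHG12 and -0.14 to 0.092 for ZFAS1. Over all 6 pre-treatment libraries, ribosomal protein reads gave -0.024 for SNHG5, -0.19 for SNHG6 and -0.091 for ZFAS1, SNHG6 ran from -0.010 (without control replicate 2) to 0.58 without 1 library, and against control replicate 3 alone SNHG5, SNHG6, SNHG7, SNHG8 and ZFAS1 were -0.28, -0.31, -0.095, -0.10 and -0.27. With controls 1 and 2, ribosomal protein reads gave -0.072, -0.30, -0.027, -0.076 and -0.17 for the same 5. For the difference between experiments they gave -0.070 for SNHG6, -0.18 for SNHG8, -0.14 for SNHG15 and -0.090 for ZFAS1. The cause was not tested.

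Replicate numbers are shared by the groups in the labels. The deviations of same-numbered libraries from their group means had correlations of -0.078, -0.079 and -0.043 with co-treatment, -0.23, 0.026 and -0.27 over all 6 pre-treatment libraries, and 0.092 and 0.0029 with controls 1 and 2. Whether same-numbered cultures were grown or prepared together cannot be decided from these values, since each deviation is from the mean of few libraries. With a replicate block the hosts called were 0, 0, 9 and 0 in the 4 comparisons, and the genes called 181, 0 over all 6 pre-treatment libraries, 10755 with controls 1 and 2 and 0 for the difference between experiments.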
